A study of Homo sapiens with 6 samples.

Results

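Genes for the enzymes of DNA methylation and hydroxymethylation were followed through maps of R-loops, the hybrids in which an RNA strand pairs with DNA and displaces the other DNA strand. The set was given as a list of 10 genes, of 20033 protein-coding genes in the reference: DNMT1, DNMT3A, DNMT3B and UHRF1, whose products write or maintain cytosine methylation, TET1, TET2 and TET3, whose products oxidise it, and TDG, MBD4 and SMUG1, whose products cut modified or damaged bases out of DNA. Peaks were counted in the RefSeq span of each gene plus 2 kb on each side, and then apart in the end windows (2 kb on each side of either edge of the span) and in the body (more than 2 kb inside both edges). The maps came from DNA-RNA hybrid immunoprecipitation sequencing (DRIP-seq) with the S9.6 antibody in SH-SY5Y, a human neuroblastoma line. All cells carried a lentiviral hairpin and had been selected with puromycin, in a series on knockdown of the RNA-binding protein TDP-43 whose title also names hydroxymethylcytosine. Each of 2 hairpins, shT2 and shNC3, had 3 samples. The labels leave unstated which hairpin targets TDP-43. Going by the names, shT2 is taken as the knockdown and shNC3 as the negative control. Separate infections for the 3 samples of a hairpin are not mentioned in the labels either, so each hairpin counts as 1 selected population, and the p-values reflect just the scatter among these 6 samples, possibly technical.

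In mammalian cells DNMT3A and DNMT3B place methyl groups on unmethylated cytosines, mostly at CpG dinucleotides, and DNMT1, guided by UHRF1, copies the pattern to the new strand after replication. TET enzymes turn methylcytosine into hydroxymethylcytosine and more oxidised forms, and TDG removes the most oxidised forms so that base excision repair can restore an unmodified cytosine. Hydroxymethylcytosine is abundant in neurons, and R-loops are known to form over CpG-rich promoters, more so where G exceeds C on the strand that matches the RNA.

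The 6 peak lists held 42717 to 45390 peaks for shNC3 and 49068 to 50971 for shT2, and covered 62.9 to 70.5 Mb and 72.7 to 78.2 Mb. The recovered sequencing depth was 1.65 to 1.79 fragments per base for shNC3 and 3.08 to 3.46 for shT2, a ratio of means of 1.90, so the called differences of whole spans are also given for lists thinned to equal depth. Thinning dropped whole peaks that the shallowest depth would not call and left the widths of the kept peaks as deposited, so it does not remove an effect of depth on width. Lengths of single regions below are unscaled. Covered length was scaled to the mean total of the 6 samples. Without this scaling the median log2 difference of all tested genes was 0.06 in place of -0.08, and 60.9% in place of 47.0% of called genes were longer in shT2. Among marker genes of the line, 9 of 10 noradrenergic neuroblastoma genes had peaks (TH had none in any sample), and the liver markers ALB and APOA1 had none. Over all protein-coding genes 34.9% had none, and the epithelial markers KRT8 and KRT18 had peaks in every shNC3 sample.

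The promoter sequences are shown first because the genes differ so much in how their starts were covered. The RefSeq promoter table (GRCh38.p14, 250 bases before to 50 bases after a listed start) held 20 entries for 9 of the 10 genes, with none for SMUG1. The 7 printed below were picked to show the range, from starts covered in every sample to starts covered in none. They run 5′ to 3′ on the strand of the gene, and capitals mark the dinucleotide CG, which reads the same on both strands and occurs in 98.04% of the 22198 promoters of the table.
DNMT3A, chr2:25341876-25342175, minus strand: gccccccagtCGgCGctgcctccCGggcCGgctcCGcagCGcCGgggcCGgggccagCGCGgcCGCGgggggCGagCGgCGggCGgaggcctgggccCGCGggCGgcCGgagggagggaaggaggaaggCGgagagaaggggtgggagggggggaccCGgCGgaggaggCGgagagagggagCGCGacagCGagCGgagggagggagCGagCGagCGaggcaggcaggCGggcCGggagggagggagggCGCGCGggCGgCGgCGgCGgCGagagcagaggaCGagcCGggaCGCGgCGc
DNMT3B, chr20:32779602-32779901, plus strand: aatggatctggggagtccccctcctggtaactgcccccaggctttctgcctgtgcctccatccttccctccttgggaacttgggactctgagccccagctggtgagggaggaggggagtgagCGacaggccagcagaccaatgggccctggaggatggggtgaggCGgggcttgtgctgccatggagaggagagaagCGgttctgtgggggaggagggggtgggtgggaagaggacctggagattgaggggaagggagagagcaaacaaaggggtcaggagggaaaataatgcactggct
TET1, chr10:68560087-68560386, plus strand: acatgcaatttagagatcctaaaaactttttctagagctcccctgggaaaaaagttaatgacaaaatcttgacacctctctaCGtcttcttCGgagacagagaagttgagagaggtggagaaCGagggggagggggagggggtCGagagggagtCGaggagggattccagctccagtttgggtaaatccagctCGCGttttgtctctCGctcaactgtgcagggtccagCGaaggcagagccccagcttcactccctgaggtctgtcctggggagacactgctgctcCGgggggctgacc
TET2, chr4:105145625-105145924, plus strand: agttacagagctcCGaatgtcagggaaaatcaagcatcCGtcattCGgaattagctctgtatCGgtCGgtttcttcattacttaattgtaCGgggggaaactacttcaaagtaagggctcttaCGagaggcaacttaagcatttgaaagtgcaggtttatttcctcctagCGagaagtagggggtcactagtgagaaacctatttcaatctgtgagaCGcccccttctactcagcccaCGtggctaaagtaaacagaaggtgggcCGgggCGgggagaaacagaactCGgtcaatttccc
TET3, chr2:73984660-73984959, plus strand: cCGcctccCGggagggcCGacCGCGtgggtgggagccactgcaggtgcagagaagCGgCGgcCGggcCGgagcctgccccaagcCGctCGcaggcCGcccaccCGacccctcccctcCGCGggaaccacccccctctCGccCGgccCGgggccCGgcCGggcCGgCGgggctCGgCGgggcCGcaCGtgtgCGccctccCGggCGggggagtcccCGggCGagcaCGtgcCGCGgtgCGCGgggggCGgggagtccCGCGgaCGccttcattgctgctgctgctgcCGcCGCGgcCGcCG
TDG, chr12:103965622-103965921, plus strand: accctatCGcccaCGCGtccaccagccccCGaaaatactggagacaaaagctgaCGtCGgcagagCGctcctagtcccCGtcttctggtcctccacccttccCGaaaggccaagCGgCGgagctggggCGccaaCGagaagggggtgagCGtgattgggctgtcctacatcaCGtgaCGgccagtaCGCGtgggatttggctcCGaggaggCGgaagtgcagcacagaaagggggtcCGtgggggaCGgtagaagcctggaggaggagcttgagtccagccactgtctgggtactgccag
MBD4, chr3:129439899-129440198, minus strand: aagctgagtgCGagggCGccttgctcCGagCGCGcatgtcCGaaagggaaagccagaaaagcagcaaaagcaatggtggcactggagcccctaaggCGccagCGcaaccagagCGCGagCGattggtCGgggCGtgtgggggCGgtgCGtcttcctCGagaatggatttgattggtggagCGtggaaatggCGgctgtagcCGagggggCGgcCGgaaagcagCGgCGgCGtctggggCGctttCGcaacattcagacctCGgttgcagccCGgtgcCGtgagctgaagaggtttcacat

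The DNMT3A window holds 46 CG dinucleotides and the TET3 window 45, against a median of 21 over all promoters, and both lay wholly under a peak in all 6 samples. The DNMT3B window, at the single start listed for that gene, 17.5 kb inside its span, holds 3 and had no peak in any sample. CG number did not order the rest. The MBD4 window holds 29 and was never covered, and the single DNMT1 window, with 30, was touched in shT2 replicate 2 alone, over 228 bases. The TET1 window holds only 10, yet the same 269 of its 300 bases were covered in every sample. Of the 20 windows, 12 were touched by a peak in all 6 samples and 4 in none, against 18.4% and 59% of all promoters. The 12 include every listed start of DNMT3A and of UHRF1, some of which overlap or share a peak. The windows are therefore not independent, and these counts are not shares of genes. GC skew, the excess of G over C on the gene's strand divided by their sum, ran from -0.298 to 0.357 in the 20 windows, and both extremes belong to covered DNMT3A starts. These are properties of the reference sequence and were not tested against the peaks.

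Per length, the genes ran from heavily covered to never covered. DNMT3A, the de novo methyltransferase, had peaks over 43.4% to 52.7% of its window in the 6 samples, DNMT1 over 36.3% to 49.5%, SMUG1 over 28.1% to 46.9%, UHRF1 over 33.1% to 40.2%, and TDG over 13.9% to 39.5%. TET3 followed with 8.64% to 16.5%, TET1 with 2.23% to 4.75%, MBD4 with 0 to 2.69% and TET2 with 0 to 1.19%, while DNMT3B, the other de novo enzyme, was at 0. Neighbours in this order overlapped over the samples, with the exception of TET3, which lay wholly above TET1, so among neighbours only that step, between the upper 6 and the lower 4 genes, is clear of the spread. For comparison, the median protein-coding gene was covered over 1.47% of its window, or 13.0% among genes covered in at least 3 samples, and 34.9% of genes had no peak at all.

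**Figure D1:**
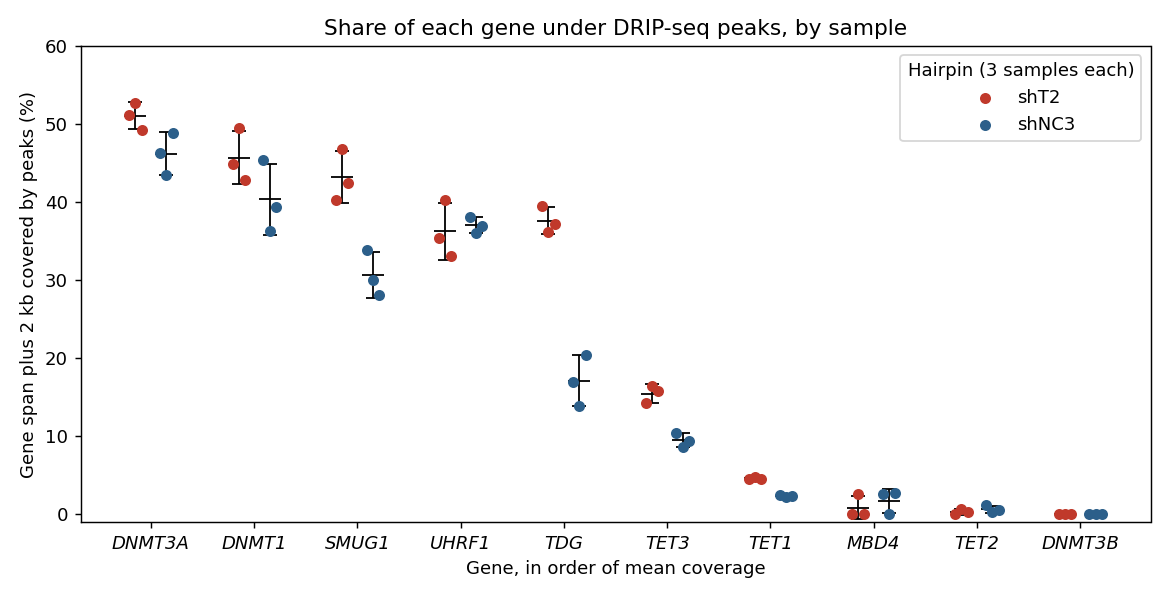
Percent of the gene span plus 2 kb that lies under peaks, by gene and sample, unscaled. Points are samples (3 for shT2 in red, 3 for shNC3 in blue), and black marks give the mean and SD of each hairpin. TDG, SMUG1, TET3 and TET1 have all shT2 points above all shNC3 points, DNMT3A does too on this unscaled axis, and DNMT3B is at 0 throughout.

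Coverage of 4 genes was longer in shT2 and that of 1 was shorter. Of the 9 genes tested, TET1, TET3, TDG and SMUG1 were called longer (limma on log2 of scaled covered length plus 500 bp, Benjamini-Hochberg adjusted p under 0.05 over 11769 genes) and UHRF1 shorter. Over all tested genes 24.1% were called longer and 27.2% shorter, so calls were common and the count for these enzymes is read against that background. The groups did not overlap for 5 of the 9, against 65.0% of all tested genes. The median log2 difference of the 9 was 0.03, and that of all tested genes -0.08. The calls were in gene bodies: there 4 of 7 tested genes were called longer and 1 shorter, against 25.2% and 21.6% of 8853 genes (46.8% in either direction), and the groups did not overlap for 5 of 7, against 66.1%. Bodies are set by the edges of the RefSeq span, so they also hold listed starts inside it, among them all those of UHRF1. In the end windows 0 of 8 were called by limma and 0 had an unadjusted p under 0.05, against 40.0% of 10575 genes called there, 14.9% longer and 25.2% shorter. The groups did not overlap in the end windows of DNMT1 and TET3, against 58.8% of all genes. In start windows alone 0 of 6 were called by limma and 2 had an unadjusted p under 0.05 (DNMT3A and TET3, whose groups did not overlap). Of 7302 genes tested there 8.83% were called longer, 23.6% shorter (32.5% together) and 59.8% did not overlap. The DNMT3A start was full in all 6 samples, and the TET3 start lengths overlapped before scaling. Both separations, and that of the TET3 end windows, came with the scaling. In the windows at the other end 0 of 3 were called and 1 had an unadjusted p under 0.05 (DNMT1, whose groups did not overlap), against 18.4% of 5807 genes longer, 15.1% shorter (33.5% together) and 64.6% without overlap. The median log2 difference was 0.31 in the bodies of the 7 and -0.14 in the end windows of the 8, against -0.03 and -0.13 over all tested genes.

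**Figure D2:**
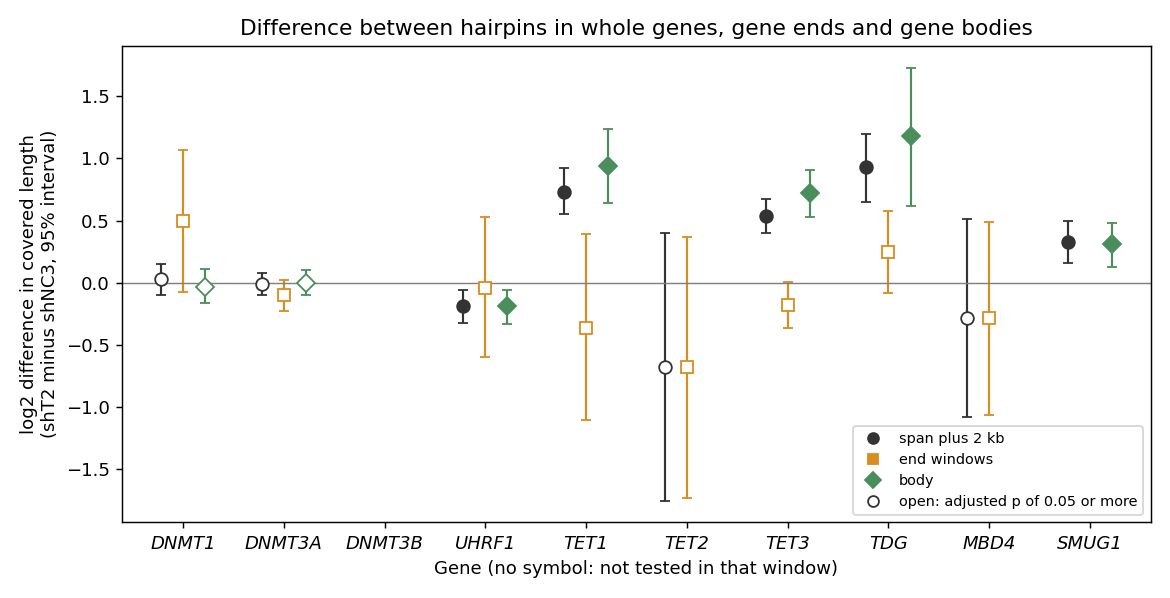
Log2 difference in scaled covered length (shT2 minus shNC3) for each gene, in the span plus 2 kb (circles), the end windows (squares) and the body (diamonds), with 95% intervals from limma. Filled symbols have an adjusted p under 0.05. The filled symbols above 0 belong to the span and body of TET1, TET3, TDG and SMUG1, no end window is filled, and DNMT1 and DNMT3A lie close to 0 in span and body.

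Among the writers, the maintenance methyltransferase gene DNMT1 (chr19:10133346-10194953, minus strand) carried 29407, 32448 and 28113 bp of peaks with shT2 and 29738, 23831 and 25839 bp with shNC3, here and below in the order of replicates 1 to 3. Scaling gave 28.4 ± 1.00 kb and 27.9 ± 1.74 kb (SD, n = 3 each), which overlap. The log2 difference was 0.03 with a 95% interval of -0.10 to 0.15 (limma adjusted p = 0.699). The coverage sat in the downstream part of the gene. A region of 9476 bp that begins 51.6 kb from the 5′ edge and reaches into the 3′ end window was covered over 8373 to 9125 bp in every sample, whereas the 4 kb around the 5′ edge held 0 to 770 bp. The next region, just across the 3′ edge, was covered over 4175, 4681 and 3882 bp in shT2 and 3092, 1447 and 2298 bp in shNC3. In the 3′ end window taken alone the groups did not overlap (3.00 ± 0.237 kb against 1.88 ± 0.571 kb), with a log2 difference of 0.58 that missed the threshold (limma adjusted p = 0.0512). A short region 14.5 kb from the 5′ edge was present in 3 of 3 shNC3 samples (434, 320 and 367 bp) and in no shT2 sample.

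DNMT3A (chr2:25227874-25342590, minus strand) had the longest coverage of the set, 60735, 62564 and 58470 bp in shT2 and 54903, 51548 and 58056 bp in shNC3. After scaling the values were 57.5 ± 0.974 kb and 58.0 ± 2.65 kb, and the log2 difference was -0.01 (95% interval -0.10 to 0.08, limma adjusted p = 0.817). Its 5′ edge lay in a region of 17955 bp covered over 15912 to 17259 bp in every sample, which includes the CG-dense window printed above. The start window was full in all 6 samples (4000 of 4000 bp), so its scaled difference of -0.14 (limma adjusted p = 0.0712) comes from the scaling alone. Near its other listed starts, regions of 3057 and 11880 bp that begin 89.8 and 93.4 kb from the 5′ edge were covered in all samples. The middle of the gene was patchy, with 1 region 53.6 kb from the 5′ edge found in 3 shNC3 samples (699, 321 and 577 bp) and no shT2 sample. Of all DNMT3A bases under any peak, 53.7% were covered in all 6 samples, the highest share of the set.

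DNMT3B (chr20:32762385-32809356), expressed mostly in early development, had no peak in any sample in 50972 bp of window. It was not tested.

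UHRF1 (chr19:4903080-4962154), which reads hemimethylated CpG sites and recruits DNMT1, was the gene with shorter coverage in shT2. The covered lengths were 22330, 25365 and 20892 bp in shT2 and 24052, 22729 and 23316 bp in shNC3, which overlap as called. Scaled to total covered length they were 21.7 ± 1.32 kb and 24.7 ± 0.803 kb, with every shNC3 value above every shT2 value, and the log2 difference was -0.19 (SE 0.05, limma adjusted p = 0.0237). UHRF1 was no longer called when lengths were left unscaled (-0.03, adjusted p = 0.748), at equal depth (-0.15, adjusted p = 0.0782), without shT2 replicate 1 or 3 (adjusted p = 0.0643 and 0.0786) and without shNC3 replicate 2 (adjusted p = 0.0666). Its widest difference was inside the gene, 35.4 kb from the 5′ edge, where a region of 7078 bp was covered over 4312, 5667 and 2946 bp in shT2 and 6500, 5974 and 5902 bp in shNC3. The peak over its 3 listed starts, which lie 6.42 to 7.29 kb inside the RefSeq span, covered 5377, 5580 and 5433 bp in shT2 and 4257, 5197 and 4992 bp in shNC3. ARRDC5, which overlaps the gene there, shared 28.6% of UHRF1 coverage, and its own difference was 0.12 (limma adjusted p = 0.172).

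**Figure D3:**
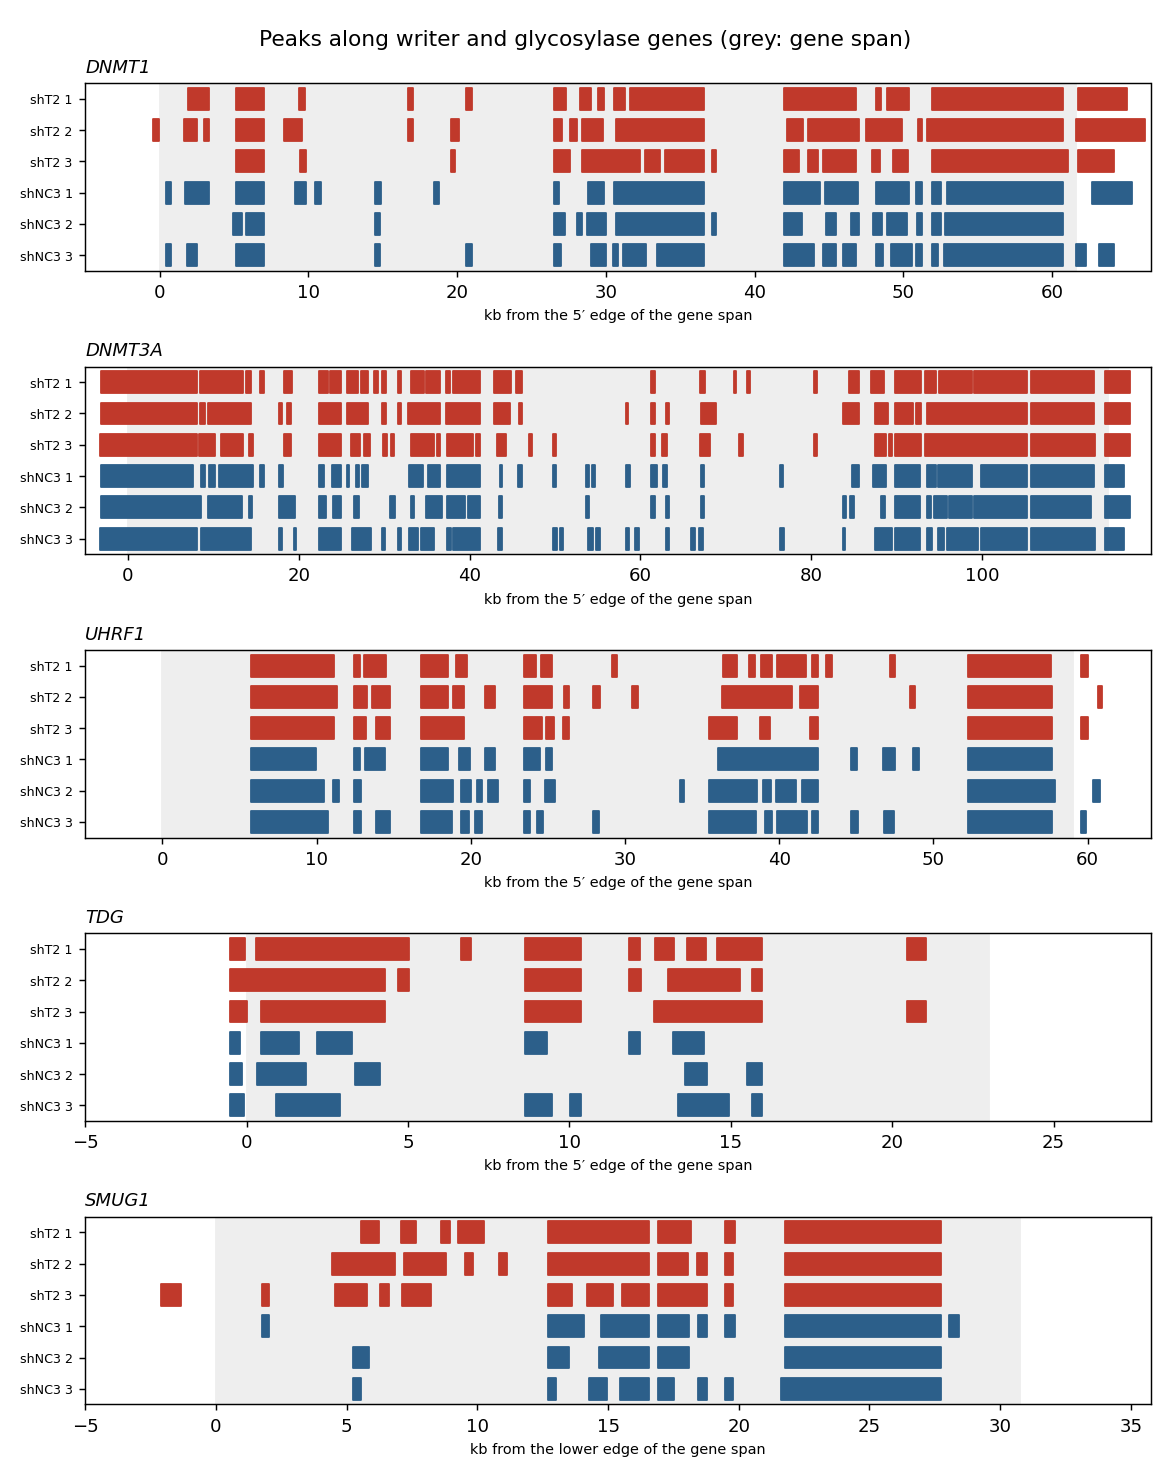
Peaks of the 6 samples (shT2 in red, shNC3 in blue) along DNMT1, DNMT3A, UHRF1, TDG and SMUG1, in kb from the 5′ edge of the gene span (from the lower-coordinate edge for SMUG1), with the span in grey. The large DNMT3A and UHRF1 blocks are shared by all samples, while TDG blocks are wider in the red tracks and SMUG1 has blocks between 4 and 12 kb mostly in the red tracks.

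Among the erasers, the 3 TET genes, all over 130 kb long, had unlike patterns. TET1 (chr10:68560337-68694487) was covered over 6276, 6563 and 6298 bp in shT2 and 3377, 3080 and 3317 bp in shNC3. The scaled values, 6.06 ± 0.0962 kb and 3.45 ± 0.0410 kb, were tight within each hairpin and well apart, with a log2 difference of 0.73 (95% interval 0.55 to 0.92, limma adjusted p = 0.000316). At equal depth it was 0.78 (limma adjusted p = 0.00236). The extra length lay inside the gene, where the body held 5923, 5718 and 5993 bp in shT2 and 2223, 2433 and 2960 bp in shNC3, which differed by 0.94 on the log2 scale (SE 0.12, limma adjusted p = 0.00229). Around the 5′ edge the values overlapped, at 353, 845 and 305 bp in shT2 and 1154, 647 and 357 bp in shNC3 (log2 difference -0.36, limma adjusted p = 0.391).

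The TET1 body signal came mainly from 2 places. A region of 4150 bp beginning 14.1 kb from the 5′ edge had peaks in all 6 samples, over 3135, 2647 and 2814 bp in shT2 and 1297, 1720 and 989 bp in shNC3. A second region of 2552 bp at 49.3 kb, about 9.13 kb past the nearest internal start, was covered over 1589, 2359 and 1430 bp in shT2, and in shNC3 only in replicate 3, over 524 bp. The remaining TET1 peaks were small and scattered: 12 of its 18 regions occurred in a single sample, and 3.75% of its covered bases were covered in all 6. Peaks were also modest in height. The highest fold enrichment over local background, as the authors' peak caller gave it, was 5.6 to 8.4 in a sample.

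TET2 (chr4:105145875-105279803) had peaks only at its start. They covered 0, 1038 and 422 bp in shT2 and 1641, 432 and 735 bp in shNC3, and the body of 129929 bp had no peak in any sample. The hairpins overlapped, and the log2 difference of -0.68 had an interval from -1.75 to 0.40 (limma adjusted p = 0.245), which leaves its size undetermined at this sample number. The printed TET2 window, with 13 CG dinucleotides, was touched in 5 of 6 samples over 202 to 300 bases. A second listed start 1.00 kb downstream, with 35, was touched only in shNC3 replicate 1. All TET2 coverage is shared with the overlapping gene model LOC124900868, the overlapping TET2-AS1 had no peak, and these peaks ranked low in their own lists, at percentiles 5.1 to 56.5 by fold enrichment.

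TET3 (chr2:73983631-74135498) had more peaks with shT2. It held 22, 26 and 26 peaks in shT2 and 14, 10 and 13 in shNC3, with covered lengths of 22148, 25706 and 24542 bp and 16332, 13471 and 14616 bp. The overlapping gene BOLA3 shares 0.0711% of TET3 coverage, and its own difference was -0.26 (limma adjusted p = 0.0618). The scaled TET3 means were 22.9 ± 1.35 kb and 15.6 ± 0.701 kb without overlap, a log2 difference of 0.54 (95% interval 0.40 to 0.67, limma adjusted p = 0.000368). At equal depth it was 0.45 (limma adjusted p = 0.00255). When peaks below 5-fold enrichment were dropped it was 0.19 and no longer called (limma adjusted p = 0.277). That cut-off kept 24039 to 25790 peaks per list in shT2 and 24599 to 25000 in shNC3. Whether it selects alike at unequal depth was not tested.

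TET3 was longer in shT2 in its body and not at its start. The start window was nearly or wholly filled in all samples, 3660, 4000 and 3623 bp of 4000 in shT2 and 4000, 4000 and 3531 bp in shNC3, and its scaled log2 difference was -0.17 (limma adjusted p = 0.0922). The start values overlapped before scaling, and a window this full could hardly lengthen. The contrast below thus sets the body against end windows whose start part was near its limit. The body held 18488, 21706 and 20919 bp in shT2 and 12332, 9471 and 11002 bp in shNC3, which differed by 0.72 on the log2 scale (SE 0.08, limma adjusted p = 0.00117). Tested directly, the difference in the body exceeded that in the end windows by 0.90 on the log2 scale (SE 0.13, limma adjusted p = 0.0119), and by 0.73 at equal depth (limma adjusted p = 0.0275). Over all genes with both parts 14.3% of 7758 were called in this direction and 6.48% in the other (20.8% together), or 13.3% and 7.15% of 7496 at equal depth (20.5% together). In TET1 the same contrast was 1.30 (adjusted p = 0.0856) and in TDG 0.93 (adjusted p = 0.108), neither past the threshold. This contrast was added after the data had been seen.

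Of the 31 TET3 regions, 17 (54.8%) were found in shT2 samples alone and 1 (3.23%) in an shNC3 sample alone, where the series as a whole had 34.3% and 24.4% of its regions in those classes. Only 2 (6.45%) were in every shT2 and no shNC3 sample, near the 5.87% of the series. A single sample held 9 (29.0%), against 37.9% of the series. These counts are unscaled, and the shT2 libraries were deeper. A region of 1570 bp at 95 kb from the 5′ edge was covered over 1095, 1413 and 709 bp in shT2, and another of 1008 bp at 103.0 kb over 302, 520 and 1008 bp, with no peak in any shNC3 sample. By contrast, regions near the 3′ part were common to all. At 136.2 kb, 1835 bp were covered in each shT2 sample and 1261, 1835 and 1123 bp in shNC3, and at 139.6 kb the coverage was 1953, 2247 and 1857 bp against 1956, 1959 and 2247 bp. The listed start 19.1 kb inside the gene, with 33 CG dinucleotides, had no peak over it, though a region of 4224 bp starting 258 bp from it was covered in all 6 samples.

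**Figure D4:**
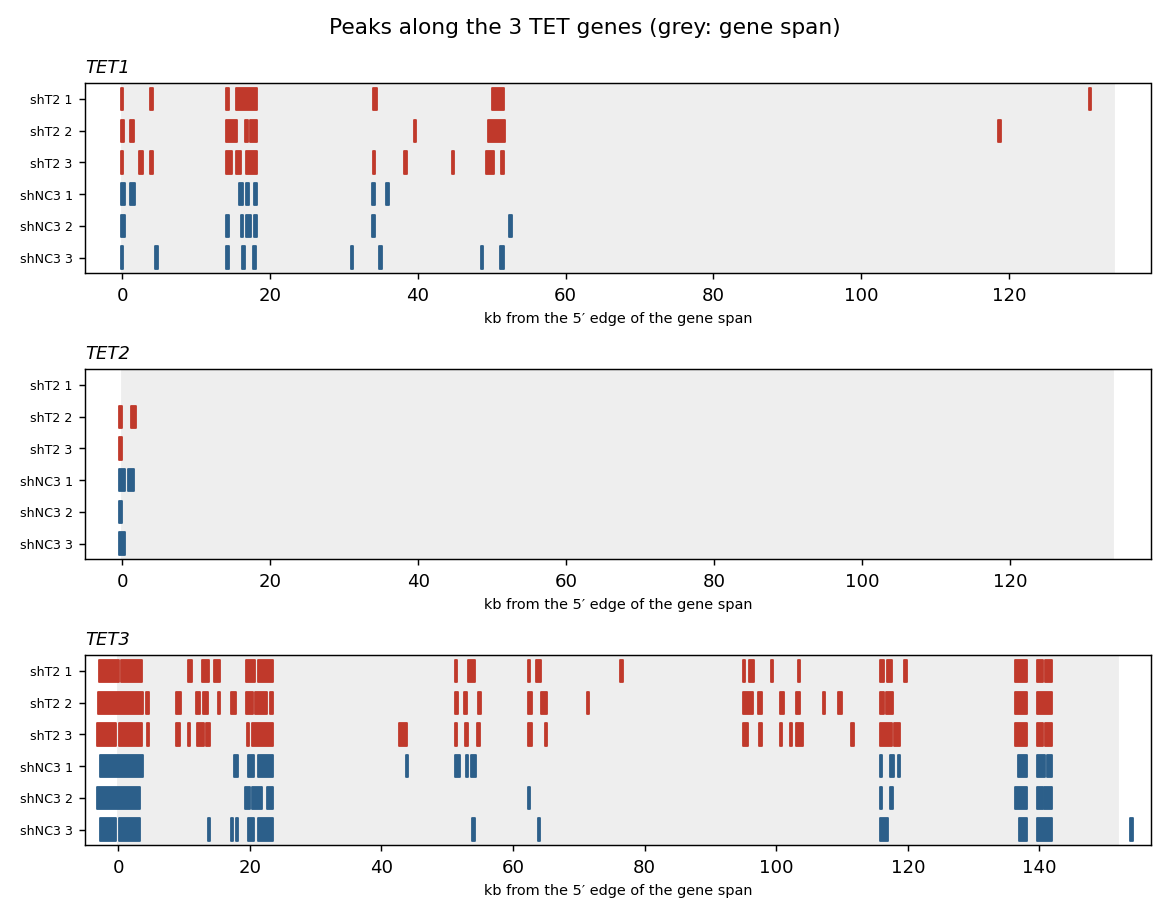
Peaks of the 6 samples (shT2 in red, shNC3 in blue) along TET1, TET2 and TET3, in kb from the 5′ edge of the gene span (grey). TET3 has blocks at 95 and 103.0 kb in the 3 red tracks and none in the blue. Its start block is nearly or wholly filled in all 6, and TET2 has peaks near its 5′ edge alone.

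Among the glycosylases, TDG (chr12:103965872-103988874) showed the largest difference. TDG cuts out oxidised products of the TET enzymes and thymine mispaired with guanine. It was covered over 10672, 9765 and 10033 bp in shT2 and 4590, 3762 and 5515 bp in shNC3, or 9.65 ± 0.728 kb and 4.87 ± 0.785 kb after scaling, with no overlap. The log2 difference was 0.93 (95% interval 0.65 to 1.2, limma adjusted p = 0.000624), and 0.94 at equal depth (limma adjusted p = 0.000733). When peaks below 5-fold enrichment were dropped it was 1.15 and missed the threshold (limma adjusted p = 0.0826). The block at the start reached further into the gene in shT2: a region of 5565 bp beginning 0.530 kb before the 5′ edge was covered over 5196, 5160 and 4382 bp in shT2 and 2584, 2660 and 2423 bp in shNC3. Over the 300-base window printed above this was 185, 300 and 260 bases against 50, 100 and 172.

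Farther in, at 8.63 kb, the same 1738 bp were covered in all 3 shT2 samples, and 685, 0 and 1185 bp in shNC3. A region of 3345 bp at 12.6 kb held 2549, 2521 and 3345 bp in shT2 and 985, 1102 and 1907 bp in shNC3. No TDG base was covered in shNC3 alone, and 33.7% were covered in shT2 alone. Body coverage was 7.49 ± 0.834 kb in shT2 and 3.12 ± 1.01 kb in shNC3, which differed by 1.18 on the log2 scale (SE 0.22, limma adjusted p = 0.00852). Its neighbour UQCC6, 164 bp away, shares 25.0% of TDG coverage and was itself longer in shT2 by 0.76 (limma adjusted p = 0.00418). The shared part, which counts for both genes, was 1997, 2366 and 1928 bp in shT2 and 1519, 1882 and 1374 bp in shNC3. It thus held only a small part of the unscaled TDG difference. GLT8D2, 112 bp away on the other side, shares none.

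SMUG1 (chr12:54158235-54188985), which removes uracil and hydroxymethyluracil, was covered over 14003, 16282 and 14772 bp in shT2 and 11772, 10411 and 9772 bp in shNC3. Scaled, this was 14.2 ± 0.653 kb against 11.3 ± 0.929 kb, with no overlap and a log2 difference of 0.33 (95% interval 0.16 to 0.50, limma adjusted p = 0.00815). It was 0.34 at equal depth (limma adjusted p = 0.00940), and 0.35 but not called without peaks below 5-fold enrichment (limma adjusted p = 0.127). In the body alone the difference was 0.31 (limma adjusted p = 0.0166), and it missed the threshold without shT2 replicate 2 (0.27, limma adjusted p = 0.0539). SMUG1 also held the highest peak of the set. A block 21.6 kb from the lower edge of the span had a fold enrichment of 30.8 to 38.3, at percentiles 98.7 to 99.3 of its own list, and was 5939 bp wide in 5 samples and 6097 bp in shNC3 replicate 3. The DNA had been cut with restriction enzymes before the pulldown, and the position of their sites was not analysed here. Peaks of several samples also shared edges in other genes, such as TDG at 8.63 kb, TET3 at 136.2 kb and the TET1 start. Whether shared edges follow such sites was not tested.

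The SMUG1 difference lay elsewhere in the gene. A region of 1862 bp at 7.09 kb from the lower edge was covered over 899, 1633 and 1135 bp in shT2 and not at all in shNC3, and one of 2394 bp at 4.45 kb over 669, 2394 and 1588 bp in shT2 and 0, 582 and 327 bp in shNC3. Both touch the window of the long non-coding RNA gene LOC102724030 inside SMUG1, which held 2550, 4666 and 2723 bp in shT2 and 0, 582 and 327 bp in shNC3. The files do not tell the strands apart. The LOC102724030 window accounted for 14.1% of SMUG1 coverage over the 6 samples, but for most of the unscaled SMUG1 difference between the hairpins. LOC105369777, 111 bp from the upper edge, had no peak.

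MBD4 (chr3:129430947-129439948), a glycosylase for thymine and uracil at CpG sites, had 1 short peak in each of 3 samples (338 bp in shT2 replicate 2, 341 bp in shNC3 replicate 1 and 350 bp in shNC3 replicate 3) at 3 different places. The log2 difference was -0.28 with an interval from -1.08 to 0.51 (limma adjusted p = 0.499). The last of these peaks is shared with IFT122, 275 bp away. No peak touched its promoter window in spite of its 29 CG dinucleotides.

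Counted by bases, the genes differed in how much of their coverage was found with a single hairpin. The share of covered bases found in shT2 samples alone was 49.4% for TET1, 44.4% for TET3, 33.7% for TDG and 32.2% for SMUG1, and the share in shNC3 samples alone 20.8%, 3.39%, 0 and 2.89%. For DNMT1, DNMT3A and UHRF1 the shT2 share was 14.8%, 9.39% and 9.89%, and the shNC3 share 5.83%, 6.94% and 9.16%. In the sparsely covered TET2 and MBD4 the larger share lay with shNC3, at 43.2% and 67.2% against 14.5% and 32.9% for shT2. In all, the genes held 144 regions, of which 26.4% were in all 6 samples, 2.08% in every shT2 and no shNC3 sample and 1.39% the reverse, against 20.6%, 5.87% and 2.86% of the 75758 regions of the series. These shares are unscaled, and the shT2 libraries were deeper. The shares of bases have no value over all genes beside them, so they are not read as particular to these genes.

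**Figure D5:**
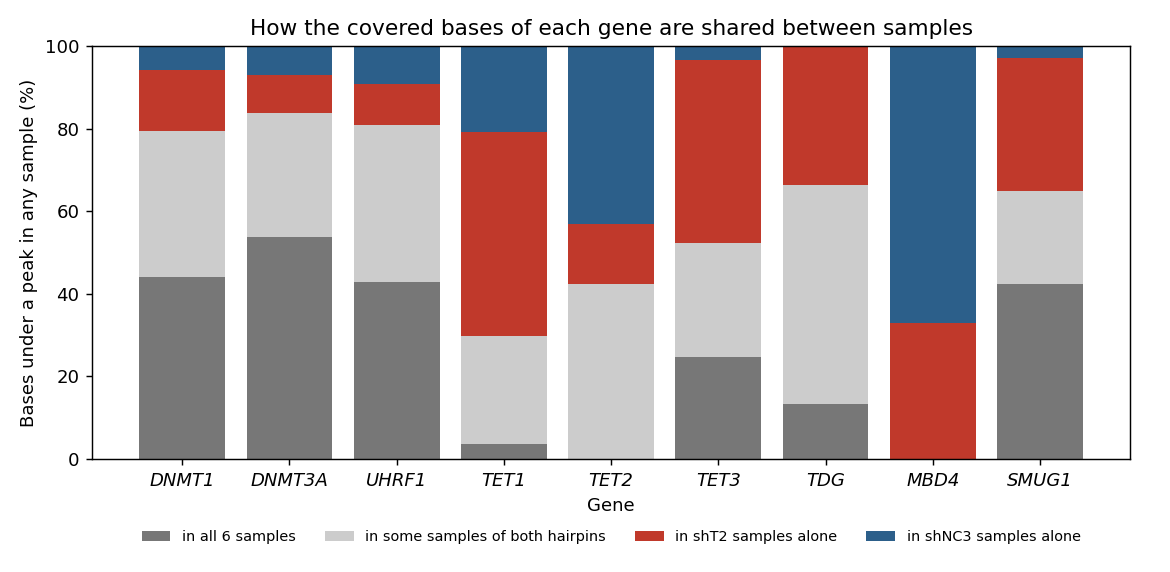
For each gene with a peak, the bases under a peak in any sample, split by the samples that cover them: all 6 (dark grey), some of both hairpins (light grey), shT2 alone (red) and shNC3 alone (blue), in percent. DNMT3A has 53.7% of its bases in all 6 samples and TET1 3.75%, and the red share is 49.4% in TET1 and 44.4% in TET3.

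Genes that work with these enzymes showed calls in both directions. Of 10 genes for readers of methylated DNA, 2 were called longer and 3 shorter, with a median log2 difference of -0.04. By smallest p these were ZBTB38 (2.02 ± 0.0434 kb in shT2 and 3.14 ± 0.139 kb in shNC3), MBD5 (0.657 ± 0.352 kb and no peak in shNC3) and MBD1 (12.1 ± 0.350 kb and 13.97 ± 0.512 kb). Of 13 partners of the methyltransferases and TET enzymes, 9 were tested, with 2 longer, 1 shorter and a median of 0.18. CXXC5, a CpG-binding protein, fell from 33.9 ± 0.509 kb in shNC3 to 14.3 ± 0.910 kb in shT2 (log2 difference -1.22, limma adjusted p = 1.125e-05). HELLS, a chromatin remodeller needed for DNA methylation, rose from 0.126 ± 0.218 kb to 2.39 ± 0.169 kb, and USP7, which stabilises DNMT1 and UHRF1, from 6.82 ± 1.47 kb to 11.5 ± 1.504 kb.

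Base excision repair genes, which act after the glycosylases, had 12 of 13 tested, 4 longer, 5 shorter and a median of -0.16. GADD45B, tied to active demethylation, had 6.38 ± 0.315 kb in shNC3 and no peak in shT2. NEIL2, a glycosylase, was at 3.49 ± 0.499 kb in shNC3 and 0.516 ± 0.275 kb in shT2, while POLB, the gap-filling polymerase, was at 0.916 ± 0.614 kb and 5.63 ± 0.160 kb. Of 12 genes of methyl donor and 2-oxoglutarate metabolism, 11 were tested, 2 were longer, 1 was shorter and the median was -0.05. MTR, methionine synthase, had 2.33 ± 0.588 kb in shT2 and 0.281 ± 0.487 kb in shNC3. AHCY, which clears the product of methyl transfer, had 21.9 ± 1.19 kb and 18.2 ± 0.954 kb, and SHMT2 6.36 ± 0.260 kb and 7.70 ± 0.162 kb. With 51.3% of all tested genes called in either direction and a median of -0.08, none of these lists is set apart here.

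Among markers of cell state, those of the mesenchymal state were mostly shorter in shT2. Of 12 genes of the mesenchymal neuroblastoma state, 9 were tested, 7 were called shorter in shT2 and 0 longer, and their summed scaled coverage was 19.9 to 22.8 kb in shT2 and 63.8 to 70.3 kb in shNC3. PRRX1, YAP1, RUNX1 and CD44 had no peak in any shT2 sample, WWTR1 had none there either and peaks in 2 shNC3 samples, and COL1A2 and SNAI2 had none in any sample. Noradrenergic markers went both ways. In spans 4 of 9 tested were called longer and 0 shorter, with a median log2 difference of 0.07. PHOX2A, HAND2, GATA2 and DBH were below 0 and not called (-0.17, -0.18, -0.08 and -0.08). Summed coverage was 97.6 to 106.4 kb in shT2 and 89.0 to 96.9 kb in shNC3. In end windows 4 were called longer and 2 shorter, and in bodies 1 of 8 was longer. Over all tested genes 24.1% of spans were called longer and 27.2% shorter. Of 3 epithelial markers 2, KRT8 and KRT18, were called shorter, with no peak in shT2. The other, EPCAM, was not tested and had 0, 0.282 and 0.545 kb in shT2 and no peak in shNC3. The part of these markers in the differences of the enzyme genes was not tested. In bulk cells, a longer covered length in every cell and in a share of the cells cannot be told apart.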

How the data were processed

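DRIP-seq peaks of 6 SH-SY5Y samples were used. Each sample has 1 deposited narrowPeak list, made by the authors with Bowtie2 2.4.4, SAMtools and MACS2 2.2.6 on hg38, per the submitters' processing notes. The control behind the calls was not stated in the sources used. Each deposited list gives an integer score, a fold enrichment ratio, a −log10 p-value and a −log10 q-value for each peak, with q up to 0.01.

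Merged peaks were intersected with RefSeq spans (GRCh38.p14) plus 2 kb. Covered length was brought to the 6-sample mean of the total, and log2(value + 500 bp) of genes covered in at least 3 of 6 samples entered a linear model in limma 3.58.1 (R 4.3.3; lmFit, then eBayes with trend and robust set), adjusted by Benjamini-Hochberg over all tested genes. Log2 differences understate change in genes with short coverage. The script was tested on simulated data. Depth was recovered from fold enrichment and p-value of each peak, and peaks that equal depth would not call were dropped, with the widths of the others kept. Strand came from the promoter table, so SMUG1 has no separate start and end windows, and its joint end windows, covered in 2 samples, were not tested.

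The genes, the lists and their tests were chosen with earlier results of these data known. All 10 enzyme genes are named, with genes within 2 kb of them and the 3 of each list with the smallest p; single markers were named after their values were seen. Samples with the same replicate number were not treated as pairs. The result of a marker list is not reported here.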

Additional observations from a re-analysis of the deposited data

How the results depend on the processing

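Covered length measures extent and not signal strength, and the unequal depth limits short and weak peaks most. Of 429 results of single enzyme genes under an alternative, 373 kept direction and side of the threshold, 28 lost the call, 3 gained it and 25 changed sign. None of the 25 was called under either setting, and the cause was not tested. TET1, TET3 and TDG stayed called in span and body, and SMUG1 in the span, under all alternatives run except peaks of at least 5-fold enrichment, where TET1 alone remained.

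For spans, all genes called longer and shorter numbered 3179 and 2044 without scaling, and 1843 and 1955 with 5-fold peaks, against 2842 and 3199. Enzyme genes called longer numbered 1 with 5-fold peaks, in span and in body. In spans this was 1 of 7 tested, beside 1843 of 10142 genes. Enzyme genes called shorter numbered 0 in span and in body without scaling, at equal depth, with equal peak number, with 5-fold peaks, with −log10 q of at least 5 and without trend and robust. In end windows 1 was longer without scaling (TDG, 0.37, limma adjusted p = 0.0483) and 1 was longer with 5-fold peaks (DNMT1, 0.79, limma adjusted p = 0.0373). With −log10 q of at least 5, 1 was shorter (DNMT3A, -0.15, limma adjusted p = 0.0401). The DNMT3A end windows include its start window, which was full in every sample as deposited, and their sign changed without scaling. All genes called in end windows numbered 1604 longer (54.4%) and 1346 shorter without scaling, 1024 and 1361 with 5-fold peaks, 1014 longer with 1 kb windows, 1279 shorter by midpoint, 645 and 1725 in start windows alone and 875 shorter in end windows alone, against 1572 (37.1%) and 2660. In bodies they numbered 2288 longer (65.2%) and 1221 shorter without scaling, and 1297 and 1130 with 5-fold peaks, against 2230 (53.8%) and 1914.

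Sign changes in spans were DNMT1 -0.04 without flanks, and DNMT3A 0.14 without scaling, 0.00 at equal depth, 0.00 with equal peak number and 0.02 without shNC3 replicate 3. In end windows they were DNMT1 -0.24 in start windows, DNMT3A 0.04 without scaling and 0.08 by midpoint, UHRF1 0.07 without scaling, 0.23 by midpoint, 0.33 with 1 kb windows, 0.02 without shT2 replicate 2 and 0.13 without shNC3 replicate 2, and TDG -0.59 by midpoint. In bodies they were DNMT1 0.13 without scaling, 0.01 at equal depth, 0.06 with 5-fold peaks, 0.00 with −log10 q of at least 5, 0.00 without shT2 replicate 3 and 0.02 without shNC3 replicate 1, and DNMT3A -0.02 with 5-fold peaks, -0.05 with −log10 q of at least 5, -0.01 by midpoint, -0.01 without shT2 replicate 1 and -0.03 without shNC3 replicate 1.

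Leaving out each sample in turn gave 4 to 4 enzyme genes longer and 0 to 1 shorter in spans, 0 to 0 and 0 to 0 in end windows, and 3 to 4 and 0 to 1 in bodies. Leave-one-out ranges were -0.05 to 0.02 for the DNMT3A span, -0.23 to 0.13 for the UHRF1 end windows, -0.07 to 0.02 for the DNMT1 body and -0.03 to 0.04 for the DNMT3A body. The UHRF1 body call was lost without shT2 replicate 1 or 3 and without each single shNC3 sample (all adjusted p = 0.0679 to 0.0958). All genes numbered 2094 to 2745 longer and 2348 to 2717 shorter in spans, 849 to 1479 and 1737 to 2306 in end windows, and 1361 to 2078 and 1244 to 1522 in bodies. Longer calls in end windows and bodies dropped by over 1.5 times when any single shT2 sample was left out, and shorter calls without shNC3 replicate 2 or 3. Deviations of same-numbered samples correlated at -0.023, -0.064 and -0.008, so no shared deviation in covered length was seen. Whether same-numbered samples were processed together cannot be told from these values. A replicate block gave 2824 longer and 2866 shorter in spans, 1545 and 2278 in end windows and 2132 and 1578 in bodies, and changed no call of an enzyme gene.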
